A study of Mus musculus with 20 samples.

Results

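The genes described here serve the unfolded protein response of the endoplasmic reticulum (ER) and the integrated stress response. They were chosen by name, as a list of 36 genes in 4 groups by role: 15 ER chaperones and folding enzymes, 4 stress sensors and their transcription factors, 7 genes of ER-associated degradation, and 10 genes of the branch that runs through the transcription factor Atf4. Of the 36, 33 were among the 12988 genes of the count table. The degradation gene Derl3 and the Atf4-linked genes Atf3 and Trib3 were not analysed here. RNA was sequenced from the microdissected anterodorsal bed nucleus of the stria terminalis, part of the basal forebrain and rich in GABAergic neurons, in 4 groups of 15 mice: female controls, stressed females, male controls and stressed males. All mice entered the study at an age of 7 to 9 weeks. Stressed mice went through chronic variable mild stress, a changing schedule of minor stressors over 6 weeks, and tissue was taken under ketamine 1 hour after the last one, wet bedding. Controls had no such schedule, and the labels name no strain, allele or drug other than the anesthetic. Tissue of 3 mice was pooled for each library, so a group has 5 libraries and n is the number of pools, whose spread is expected to be narrower than that of single mice.

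When misfolded proteins build up in the ER, the chaperone encoded by Hspa5 leaves the sensor proteins of the ER membrane. The kinase and nuclease encoded by Ern1 then splices Xbp1 mRNA, the membrane-bound factor encoded by Atf6 is cut free, and the kinase encoded by Eif2ak3 phosphorylates a translation initiation factor, which slows general translation and favours that of Atf4. Spliced Xbp1 and cleaved Atf6 raise chaperone and degradation genes, while Atf4, which other kinases of the integrated stress response also feed, raises genes of amino acid supply and, through Ddit3, of cell death. Neurons that secrete peptides, as those of this region do, carry a steady load of ER folding. Gene counts measure mRNA only, so Xbp1 splicing, Atf6 cleavage and Atf4 translation were not measured.

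The promoters below belong to the 6 ER chaperone genes that followed the other members of their group most closely between libraries, among those with an entry, in that order, and are shown because the chaperone group was the one whose members varied together (the correlations are given further on). Each line holds the 250 bases before the RefSeq start of the gene (build GRCm38.p6), read 5′ to 3′ on the gene's strand. Capitals mark the fixed letters of an ER stress element, CCAAT, 9 bases of any kind and CCACG, on either strand, and in Hspa5 also of the core TGACGTG of an Xbp1 and Atf6 binding element.
Hspa5 (chr2:34771840-34772089, plus strand): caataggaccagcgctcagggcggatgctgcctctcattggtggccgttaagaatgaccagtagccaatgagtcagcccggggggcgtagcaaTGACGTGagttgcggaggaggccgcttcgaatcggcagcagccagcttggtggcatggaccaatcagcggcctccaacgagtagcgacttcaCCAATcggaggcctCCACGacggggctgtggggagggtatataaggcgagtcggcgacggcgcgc
Dnajc3 (chr14:118937682-118937931, plus strand): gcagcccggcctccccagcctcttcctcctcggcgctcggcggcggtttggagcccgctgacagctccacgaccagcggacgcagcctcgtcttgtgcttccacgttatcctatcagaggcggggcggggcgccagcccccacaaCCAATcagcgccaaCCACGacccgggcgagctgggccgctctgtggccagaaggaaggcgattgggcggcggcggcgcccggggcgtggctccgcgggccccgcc
Pdia6 (chr12:17266339-17266588, plus strand): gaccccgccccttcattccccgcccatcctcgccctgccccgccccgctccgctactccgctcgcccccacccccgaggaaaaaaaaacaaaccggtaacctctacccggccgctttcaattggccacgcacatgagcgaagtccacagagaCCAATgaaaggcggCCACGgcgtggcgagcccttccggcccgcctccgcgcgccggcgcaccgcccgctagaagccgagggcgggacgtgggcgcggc
Pdia4 (chr6:47813513-47813762, minus strand): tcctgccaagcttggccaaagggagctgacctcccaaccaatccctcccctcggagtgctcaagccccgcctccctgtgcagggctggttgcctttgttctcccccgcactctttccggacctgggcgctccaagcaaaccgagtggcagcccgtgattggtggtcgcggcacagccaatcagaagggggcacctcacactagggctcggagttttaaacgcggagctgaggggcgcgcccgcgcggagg
Dnajb11 (chr16:22857595-22857844, plus strand): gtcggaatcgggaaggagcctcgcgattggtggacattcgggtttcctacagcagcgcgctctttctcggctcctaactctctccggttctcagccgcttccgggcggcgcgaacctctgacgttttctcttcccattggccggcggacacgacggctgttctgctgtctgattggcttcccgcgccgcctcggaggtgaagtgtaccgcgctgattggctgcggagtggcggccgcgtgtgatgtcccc
Hsp90b1 (chr10:86705445-86705694, minus strand): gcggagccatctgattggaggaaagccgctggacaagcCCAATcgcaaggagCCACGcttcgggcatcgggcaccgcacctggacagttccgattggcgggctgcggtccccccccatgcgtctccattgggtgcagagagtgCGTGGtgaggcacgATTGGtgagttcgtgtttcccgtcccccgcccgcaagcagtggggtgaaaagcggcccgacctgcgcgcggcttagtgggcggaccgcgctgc

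The ER stress element lay 65 to 47 bases before the start in Hspa5, 105 to 87 in Dnajc3 and 98 to 80 in Pdia6. Hsp90b1 had a copy at 212 to 194 bases and another, read on the opposite strand, at 107 to 89. Of the 33 genes, 29 had a RefSeq promoter entry of 300 bases (250 before and 50 after the start). The exact ER stress element was found in 7 of 13 chaperone promoters, also in Calr, Canx and Creld2, in 1 of 5 degradation genes (Syvn1), and in 0 of 3 sensors and 0 of 8 Atf4-linked genes. It occurred in 39 of all 32817 promoters of that length, 0.119%. The core TGACGTG was found in Hspa5 alone among the 29, and in 2.01% of all promoters. The Atf4 response letters TGATG, 1 base of any kind and AA, searched on both strands, occurred in the Atf4-linked Asns and Chac1 and in the degradation gene Herpud1, in 0 of 13 chaperones, and in 3.97% of all promoters. No matches overlapped within these promoters. A match describes letters and not a bound site.

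Total counts per library ran from 2707881 (female control 4) to 33595388 (male stressed 4). Together the 33 genes took between 0.347% and 0.405% of a library's counts. Xist and the Y-linked Ddx3y matched the labelled sex in 20 of 20 libraries, and the GABAergic genes Gad1 and Gad2 were abundant in all, at 706 ± 31.9 and 1125 ± 63.5 CPM (counts-per-million, with TMM-scaled library sizes; SD, n = 20). Markers of striatal neurons, a neighbouring cell type, differed between groups: the levels of 14 of 14 listed genes summed to 3172 to 3931 CPM in male controls and 4497 to 6629 in stressed males, with 3406 to 5939 in the control females and 3281 to 6656 in the stressed ones. In males that range did not overlap between control and stressed libraries, so the striatal share of the dissected tissue and the stress cannot be told apart there, and values with the striatal score as a model term are given beside several results. In bulk tissue, fewer cells of a type and less RNA per cell cannot be told apart. The deepest library, male stressed 4, stood apart for the chaperones, and several values are also given without it.

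Markers of other cell types also differed between groups. In male against female controls, 14 of 14 oligodendrocyte markers had lower values (median log2 difference -0.17, 1 with an unadjusted p under 0.05), as did 10 of 11 microglial markers (-0.21, 6) and 9 of 10 endothelial markers (-0.18, 5). In stressed against control females, 14 of 14 oligodendrocyte markers were lower (-0.26, 9 with an unadjusted p under 0.05). So were 10 of 11 microglial markers (-0.098, 1) and 7 of 10 endothelial markers (-0.075, 3). In stressed against control males, 9 of 10 endothelial markers (0.15, 4) and 9 of 11 microglial markers (0.095, 3) were higher. Of 10 neuronal markers there, 7 were lower (median -0.068). Of the 10, 4 were lower and 1 was higher at an unadjusted p under 0.05. The summed oligodendrocyte level was 8698 to 13446 CPM in male controls and 7634 to 11808 in stressed males, 8925 to 10961 in stressed females and 9500 to 13718 in control females, with wide overlap. The mean log2 level of 9 thalamic neuron markers, centred on 0 over the libraries, was 0.55 in female stressed 2, the highest of all 20. The same score for striatal markers was -0.45 in that library, the lowest of its group. The part of these markers in the results below was not tested, other than in fits with the striatal or the oligodendrocyte score as a term.

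The 33 genes spanned a wide range of levels but varied little between pools of a group. Per kilobase of the longest coding transcript, the lectin chaperone Calr had the highest mean level over the 20 libraries, 183 CPM per kb, followed by the ER form of the Hsp90 family, Hsp90b1 (169), the lectin chaperone Canx (101) and Hspa5 (96.8). The sensor Ern1 was the lowest at 1.59 CPM per kb, with the glutathione-degrading enzyme Chac1 (2.60) and the nutrient-sensing Sesn2 (2.65) just above it. The serine synthesis enzyme Psat1 (54.6), Atf4 (44.9), Xbp1 (42.1) and the degradation adaptor Sel1l (40.2) lay in the upper part of the order, and Ddit3 in the middle at 19.6. The coefficient of variation within a group, averaged over the 4 groups, had a median of 6.94% over the 33 genes and 8.70% over all genes, and 27 of the 33 were under the latter. Sel1l was the steadiest at 3.52%, while Chac1 (18%) and the chaperone cofactor Sdf2l1 (14.7%) varied most. Both were among the lowest in count, and Chac1 had 7 reads in the shallowest library.

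**Figure D1:**
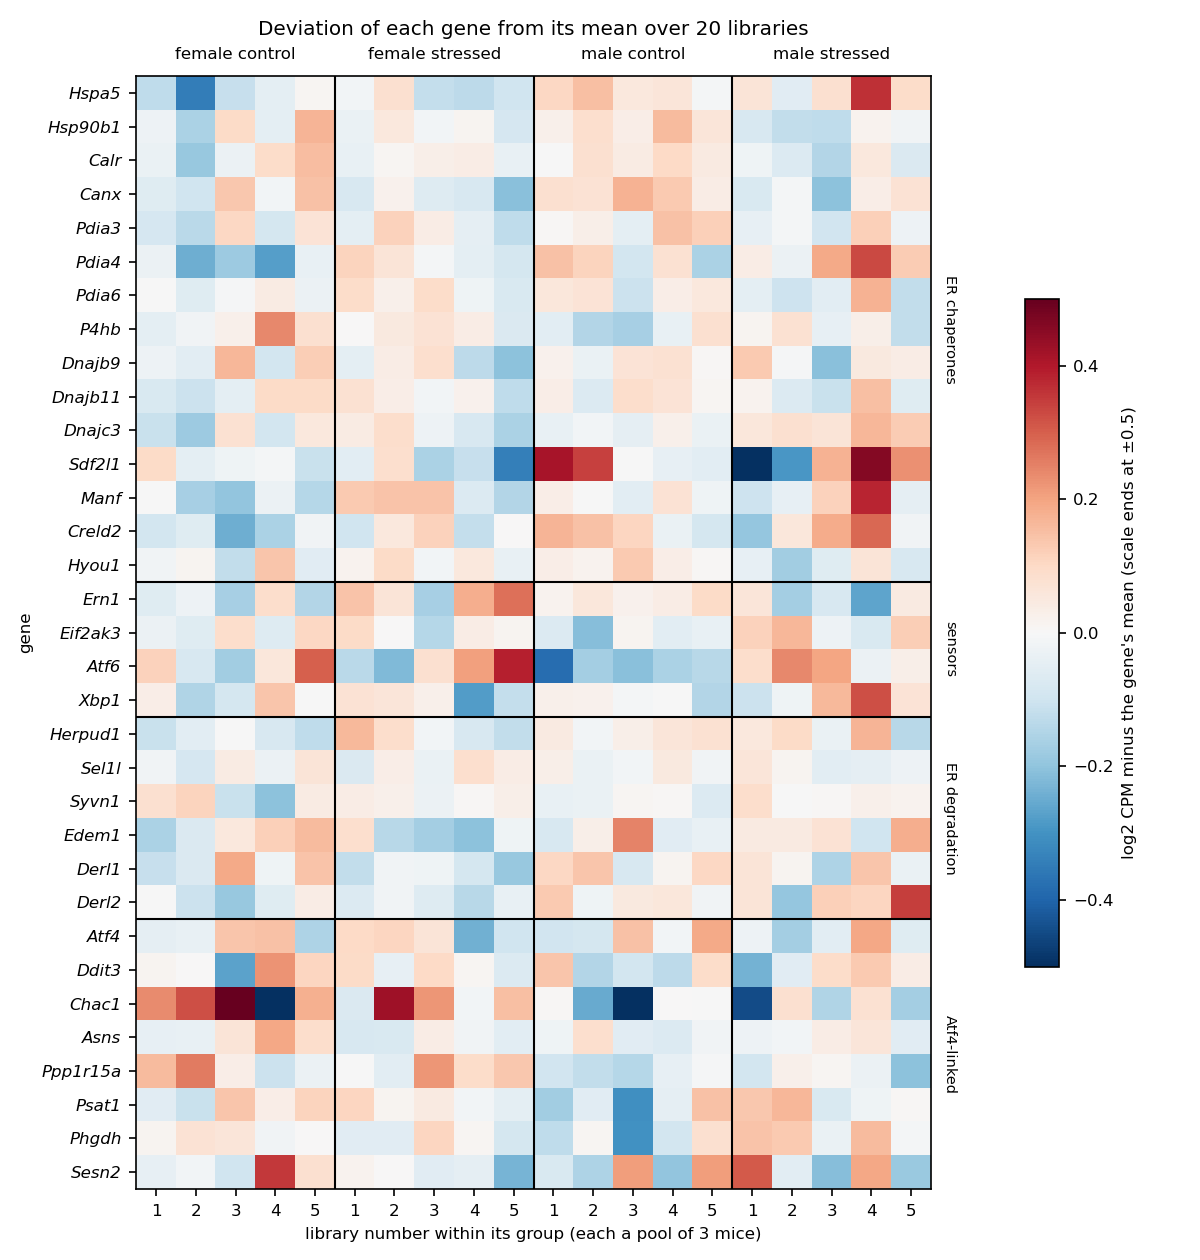
Heat map of the 33 genes (rows, by role) in the 20 libraries (columns, numbered within each of the 4 groups), coloured by log2 CPM minus the gene's mean over all libraries, with colours ending at ±0.5. Male stressed 4 is red in most chaperone rows, while the row of Sel1l stays pale in all columns.

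After 6 weeks of stress the levels of these genes were close to those of controls in both sexes. In edgeR's quasi-likelihood test, adjusted over all 12988 genes by the Benjamini-Hochberg method, 0 of the 33 genes passed an adjusted p of 0.05 in females, where 0.0% of all genes passed, and 0 of 33 in males, where 0.0077% did (1 gene). DESeq2 and limma-voom also called 0 of the 33 genes in each of the 6 comparisons described here. At an unadjusted p under 0.05, 1 gene was higher and 0 were lower in stressed females, against 3.69% higher and 3.83% lower of all genes. In males 3 were higher and 2 lower, against 8.71% and 6.76% of all genes. The shares over both directions were 3.03% of the 33 genes against 7.51% of all genes in females, and 15.2% against 15.5% in males, so neither stood above the background. The 95% interval of every one of the 33 genes lay within a 1.5-fold change either way in both sexes, with a median half-width of 0.14 log2 units, a factor of 1.10.

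**Figure D2:**
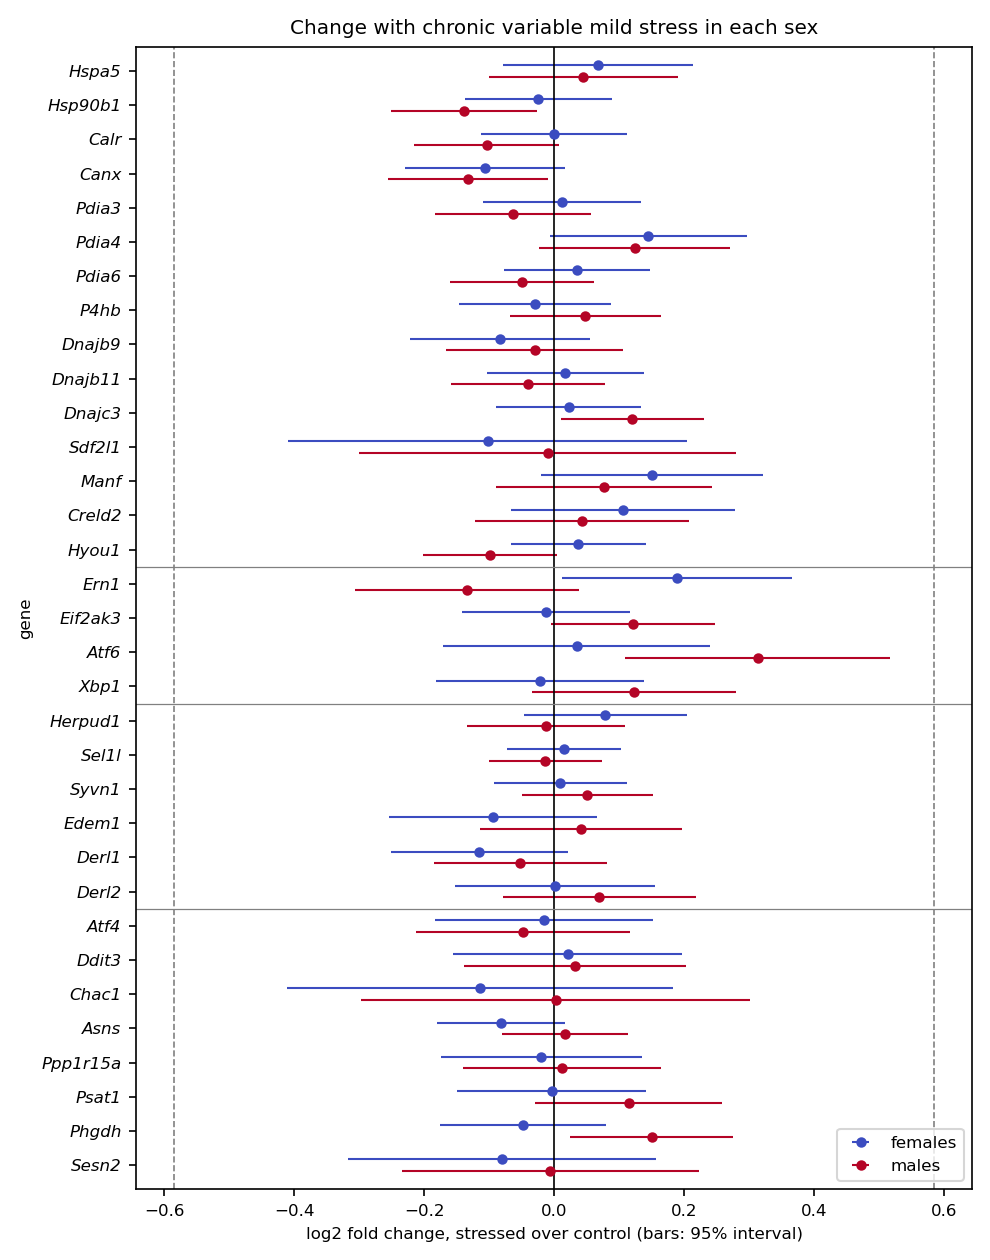
Log2 fold change of stressed over control libraries with its 95% interval for each of the 33 genes, in females (blue) and males (red). Dashed lines mark a 1.5-fold change; no interval reaches them, and that of Atf6 in males comes nearest, ending at 0.52.

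Among the 15 chaperones, the chief ER chaperone Hspa5 showed no change that passed the test. Its level in female controls 1 to 5 was 324, 279, 327, 342 and 356 CPM, and in stressed females 350.4, 374, 325, 323 and 329.8 CPM. Male controls 1 to 5 had 380.4, 393, 367, 368 and 352 CPM and stressed males 369.6, 340.4, 374, 456 and 377 CPM. Control and stressed libraries overlapped in each sex, and male stressed 4 was the highest of all 20. The log2 fold change with stress was 0.068 (SE 0.071, adjusted p = 0.859) in females and 0.045 (SE 0.070, adjusted p = 0.846) in males, where it became -0.025 without male stressed 4 and 0.093 with the striatal term.

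Hsp90b1 and Canx had lower values in stressed males, and Dnajc3, an Hspa5 partner that also restrains the kinase encoded by Eif2ak3, had higher ones. For Hsp90b1, male controls had 485, 505, 487, 533 and 498 CPM and stressed males 451, 438, 437, 483 and 471 CPM. The highest stressed library was just under the lowest control, and the log2 difference was -0.14 (SE 0.054, adjusted p = 0.214). For Dnajc3, male controls had 85.4, 86.8, 84.8, 89.0 and 85.7 CPM and stressed males 91.0, 92.6, 91.5, 98.1 and 95.7 CPM, with the lowest stressed library above the highest control. Its log2 difference was 0.12 (SE 0.053, adjusted p = 0.271). Canx, at 463 ± 17.1 CPM in male controls and 422 ± 31.1 in stressed males (SD, n = 5), overlapped between the groups, with a log2 difference of -0.13 (SE 0.059, adjusted p = 0.281). With the striatal score as a covariate the 3 log2 differences were -0.098 for Hsp90b1, 0.21 for Dnajc3 and -0.033 for Canx, and no adjusted p fell under 0.05.

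In females the chaperones with the smallest p were the disulfide isomerase Pdia4, at 0.14 (SE 0.073, adjusted p = 0.675) log2 units, the secreted folding factor Manf, at 0.15 (SE 0.083, adjusted p = 0.704), and Canx, at -0.11 (SE 0.060, adjusted p = 0.709). Manf ran from 33.5 to 38.4 CPM in female controls and from 34.7 to 42.4 in stressed females, so the groups overlapped. The median log2 fold change of the 15 chaperones was 0.017 in females (9 higher, 6 lower) and -0.030 in males (6 higher, 9 lower), beside -0.0011 and -0.0067 over all genes. The male median was 0.026 with the striatal term and -0.088 without male stressed 4.

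Of the 4 sensor genes, Atf6 (annotated in GENCODE M21, GRCm38, at chr1:170704674-170867771, minus strand) showed the largest difference of the 33 in males. Male controls 1 to 5 had 68.0, 78.7, 76.7, 79.5 and 80.5 CPM and stressed males 94.2, 105, 101, 86.8 and 90.3 CPM. Every stressed male library lay above every male control. The log2 difference was 0.31 (SE 0.098, adjusted p = 0.127), with an unadjusted p of 0.00420, and it did not pass. A fit of the 10 male libraries alone gave 0.31 with an adjusted p of 0.0259, the only call of any of the 33 genes under any setting tried. That fit called 303 genes in all, against 1 in the main fit. With the striatal score as a covariate the Atf6 difference was 0.012, with an unadjusted p of 0.857. In females Atf6 had 96.0, 83.8, 78.5, 92.2 and 109 CPM in controls and 80.6, 76.0, 93.6, 102 and 116 CPM in stressed mice, ranges that overlapped widely.

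Without overlap between stressed and control libraries were 2 of the 33 genes on the higher side in males (Atf6 and Dnajc3) and 1 on the lower side (Hsp90b1), against 3.13% and 1.16% of all genes. In females there were 0 on either side, against 0.654% and 0.562%.

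Ern1 (chr11:106394650-106487852, minus strand) was the member with the smallest p in females. Female controls had 10.5, 10.8, 9.78, 11.7 and 9.91 CPM and stressed females 12.1, 11.5, 9.80, 12.5 and 13.3 CPM. Stressed females 1, 4 and 5 were above all controls, and stressed females 2 and 3 were within the control range. The log2 difference was 0.19 (SE 0.086, adjusted p = 0.649), and the unadjusted p was 0.0374. Xbp1 (chr11:5520659-5525893, plus strand) had 90.9, 90.7, 88.8, 89.3 and 80.8 CPM in male controls and 82.9, 87.9, 99.9, 112 and 93.7 CPM in stressed males, overlapping, with a log2 difference of 0.12 (SE 0.076, adjusted p = 0.463), or 0.057 without male stressed 4, the highest library. In females Xbp1 was at 88.7 ± 6.87 CPM in controls and 86.8 ± 8.73 in stressed mice (SD, n = 5), a log2 difference of -0.021 (SE 0.077, adjusted p = 0.986). Eif2ak3 ranged from 24.1 to 31.3 CPM over all 20 libraries.

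The 6 genes of ER-associated degradation serve to draw misfolded proteins out of the ER for destruction. None of the 6 had an unadjusted p under 0.05 in either sex, and their median log2 fold change was 0.0052 in females and 0.014 in males. Sel1l, the adaptor of the ubiquitin ligase encoded by Syvn1, was at 253 ± 10.2, 255 ± 10.9, 254 ± 6.28 and 252 ± 8.29 CPM in female control, female stressed, male control and male stressed libraries (SD, n = 5 each). Syvn1 was at 61.2 ± 5.63, 62.3 ± 1.15, 60.6 ± 1.36 and 62.8 ± 1.62 CPM in the same order. The channel subunit gene Derl1 had the smallest p of the group in females, at -0.12 (SE 0.066, adjusted p = 0.715) log2 units. Herpud1, a scaffold of the same ligase complex, ran from 49.1 to 60.9 CPM over the 20 libraries, and the mannose lectin gene Edem1 from 23.5 to 32.1 CPM.

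Of the 8 Atf4-linked genes, 1 (Phgdh) had an unadjusted p under 0.05, in males only by that threshold. Atf4 itself (chr15:80255184-80257541, plus strand) had 74.7, 75.3, 84.9, 85.5 and 69.3 CPM in female controls and 82.7, 83.2, 80.6, 65.3 and 72.0 CPM in stressed females. Male controls had 72.2, 72.5, 85.4, 76.4 and 87.9 CPM and stressed males 75.9, 68.7, 74.3, 88.2 and 74.1 CPM. All 4 groups overlapped, and the log2 fold change was -0.015 (SE 0.081, adjusted p = 0.999) in females and -0.048 (SE 0.080, adjusted p = 0.863) in males. In males it was 0.10 with the striatal term and -0.11 without male stressed 4, so its sign depended on the setting. Ddit3 (chr10:127290829-127293753, plus strand), whose product promotes cell death under lasting ER stress, had 17.6, 17.4, 14.5, 20.3 and 18.7 CPM in female controls and 18.6, 16.9, 18.7, 17.6 and 16.6 CPM in stressed females. Male controls had 19.2, 15.7, 16.3, 15.9 and 18.5 CPM and stressed males 14.8, 16.7, 18.6, 19.0 and 17.9 CPM. The groups overlapped in each sex, and the log2 fold change was 0.021 (SE 0.085, adjusted p = 0.993) in females and 0.032 (SE 0.083, adjusted p = 0.931) in males, with 95% intervals of -0.16 to 0.20 and -0.14 to 0.20. In males it was -0.022 with the striatal term and -0.0026 without male stressed 4.

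Phgdh, which encodes the first enzyme of serine synthesis, had 57.3, 62.8, 50.6, 58.7 and 66.0 CPM in male controls and 68.9, 68.5, 61.1, 69.7 and 62.0 CPM in stressed males. Stressed males 1, 2 and 4 were above all controls and the other two lay within the control range. The log2 difference was 0.15 (SE 0.060, adjusted p = 0.226). The partner enzyme Psat1 was at 135 ± 15.8 CPM in male controls and 147 ± 10.7 in stressed males (SD, n = 5), and asparagine synthetase, Asns, at 77.9 ± 3.30 and 78.7 ± 2.61. The phosphatase subunit gene Ppp1r15a, which reverses the block of translation, was at 13.4 ± 0.527 and 13.7 ± 0.856 CPM, and Sesn2 at 9.19 ± 1.28 and 9.30 ± 1.52. The median log2 fold change of the 8 genes was -0.034 in females, with 1 higher and 7 lower, and 0.015 in males, with 6 higher and 2 lower. With the striatal term the male median was 0.10, and without male stressed 4 it was -0.00078.

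**Figure D3:**
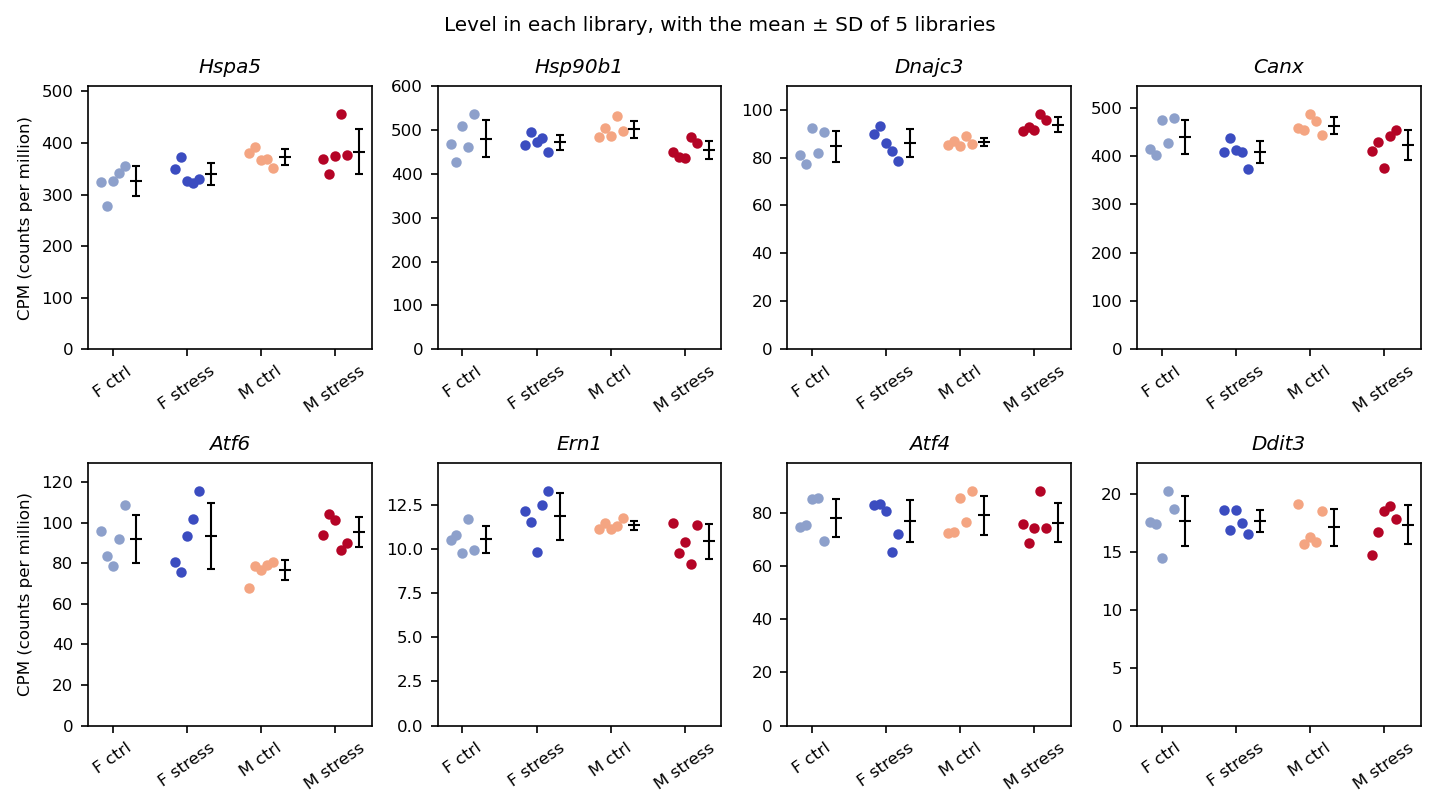
CPM of 8 genes in each library (points, in library order) by group, with the mean ± SD of 5 libraries to the right of each group. Axes start at 0. The stressed male points of Atf6 and Dnajc3 lie above all male controls and those of Hsp90b1 below, while all 4 groups overlap for Atf4.

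Between the sexes, 0 of the 33 genes passed the adjusted test in controls, where 0.747% of all genes did (97), or in stressed mice, where 0.077% did (10). Among controls, 2 genes had an unadjusted p under 0.05 on the male-higher side and 3 on the lower side, against 7.08% and 8.17% of all genes. Among stressed mice, 3 were higher and 1 lower, against 3.71% and 3.35%. No gene of the 33 had sex groups without overlap. Over all genes, that was so for 1.95% (male higher) and 2.02% (male lower) in controls, and for 0.77% and 0.5% in stressed mice.

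Hspa5 had the smallest p in both sex comparisons. With the values given above, 4 of 5 male controls exceeded every female control, and male control 5 fell below female control 5. The male minus female log2 difference was 0.20 (SE 0.071, adjusted p = 0.184) in controls and 0.17 (SE 0.070, adjusted p = 0.649) in stressed mice. Those comparisons share no library, and neither difference passed. Without male stressed 4 the difference in stressed mice was 0.10. Pdia4 was at 53.7 ± 4.26 CPM in female controls and 60.5 ± 5.51 in male controls (SD, n = 5), a log2 difference of 0.16 (SE 0.074, adjusted p = 0.299), and in stressed mice the difference was 0.14 (SE 0.071, adjusted p = 0.715), or 0.085 without male stressed 4.

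Chac1, Ppp1r15a and Atf6 had lower values in male than in female controls. Chac1 had 4.91, 5.21, 6.34, 2.64 and 4.71 CPM in female controls and 4.18, 3.50, 2.89, 4.17 and 4.16 CPM in male controls. Female control 4, the shallowest library, was below all males and the other 4 females were above them. The log2 difference was -0.38 (SE 0.15, adjusted p = 0.217), with a 95% interval of -0.69 to -0.074, the only interval of the 33 in any comparison that went past a 1.5-fold change. For Ppp1r15a the log2 difference was -0.17 (SE 0.076, adjusted p = 0.290), and -0.11 with the striatal term. For Atf6 it was -0.26 (SE 0.10, adjusted p = 0.223), and adjusting for the striatal score gave 0.0039. In stressed mice the degradation gene Derl2 differed by 0.17 (SE 0.071, adjusted p = 0.649) log2 units, Dnajc3 by 0.13 (SE 0.053, adjusted p = 0.649), Ern1 by -0.20 (SE 0.081, adjusted p = 0.649) and Xbp1 by 0.14 (SE 0.075, adjusted p = 0.719), or 0.078 without male stressed 4. Between the sexes Atf4, Ddit3 and Xbp1 in controls differed by 0.028 (SE 0.081, adjusted p = 0.926), -0.0049 (SE 0.086, adjusted p = 0.993) and -0.00027 (SE 0.078, adjusted p = 1.000). In stressed mice Atf4 and Ddit3 differed by -0.0045 (SE 0.079, adjusted p = 0.998) and 0.0056 (SE 0.081, adjusted p = 0.998).

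The stress effect in males minus that in females was tested as an interaction, and 0 of the 33 genes passed, as did 0.0% of all genes. At an unadjusted p under 0.05, 1 gene was on the higher side and 1 on the lower, against 5.34% and 5.03% of all genes. The lower one was Ern1, whose stress effect was 0.19 in females and -0.13 in males, an interaction of -0.32 (SE 0.12, adjusted p = 0.365). The higher one was Phgdh, with an interaction of 0.20 (SE 0.086, adjusted p = 0.440). The next by p were Atf6 at 0.28 (SE 0.14, adjusted p = 0.494), the Hspa5 exchange factor Hyou1 at -0.14 (SE 0.071, adjusted p = 0.508) and Eif2ak3 at 0.13 (SE 0.087, adjusted p = 0.610). For Atf6 the interaction was -8.8e-05 with the striatal score as a covariate. Hspa5, Xbp1, Atf4 and Ddit3 had interactions of -0.023 (SE 0.10, adjusted p = 0.990), 0.14 (SE 0.11, adjusted p = 0.673), -0.032 (SE 0.11, adjusted p = 0.981) and 0.011 (SE 0.12, adjusted p = 0.999). Without male stressed 4 these 4 values were -0.093, 0.078, -0.094 and -0.024, and with the striatal term 0.024, 0.18, 0.11 and -0.043.

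Averaged over the sexes, stress also gave 0 calls among the 33 genes and 0.0% of all genes. There, 2 genes were higher and 2 lower at an unadjusted p under 0.05, against 7.45% and 5.27% of all genes. Canx had the smallest p, at -0.12 (SE 0.042, adjusted p = 0.278) log2 units, followed by Pdia4 at 0.13 (SE 0.051, adjusted p = 0.296), Atf6 at 0.17 (SE 0.070, adjusted p = 0.313), Hsp90b1 at -0.081 (SE 0.039, adjusted p = 0.383) and Manf at 0.11 (SE 0.058, adjusted p = 0.403). The average effect was 0.056 (SE 0.050, adjusted p = 0.671) for Hspa5, 0.051 (SE 0.054, adjusted p = 0.741) for Xbp1, -0.031 (SE 0.057, adjusted p = 0.870) for Atf4 and 0.026 (SE 0.059, adjusted p = 0.908) for Ddit3. With the striatal term Atf6 was at 0.013, Canx at -0.068 and Atf4 at 0.049. Without male stressed 4, Manf was at 0.066, Hspa5 at 0.021 and Xbp1 at 0.018.

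To set the chaperone branch beside the Atf4 branch, the mean log2 CPM of each role group was taken in every library and centred on 0 over the 20 libraries. The chaperone score had a median, with the lowest and highest library in parentheses, of 0.056 (0.0043 to 0.068) in male controls and -0.016 (-0.055 to 0.18) in stressed males. In females it was -0.024 (-0.12 to 0.034) in controls and 0.0036 (-0.12 to 0.063) in stressed mice. The Atf4-linked score had medians of -0.072 (-0.13 to 0.085), -0.029 (-0.079 to 0.094), 0.047 (0.022 to 0.083) and 0.014 (-0.039 to 0.091) in the same order. Male controls thus combined the highest median chaperone score with the lowest median Atf4-linked score, and female controls the lowest with the highest. The chaperone minus Atf4-linked score had a median of 0.13 (-0.081 to 0.15) in male controls and 0.032 (-0.064 to 0.087) in stressed males. In females it was -0.072 (-0.18 to -0.013) without stress and -0.018 (-0.081 to 0.024) with it. In 4 of 5 male controls it was above every library of the other groups, and in male control 5 it was below 0 and within the range of female controls.

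Gene by gene, the same comparison showed 13 of 15 chaperones with a higher fitted level in male than in female controls (median log2 difference 0.061) and 7 of 8 Atf4-linked genes with a lower one (-0.079), beside 50.1% of all genes on the higher side and a median of 0.00025. Of 45 further Atf4 targets chosen by name, 28 were higher in male than in female controls (median 0.021). The 8 genes therefore do not stand for Atf4 targets at large. Of 49 further ER folding genes, 31 were higher (0.036). In stressed mice 9 of 15 chaperones and 5 of 8 Atf4-linked genes were higher in males, with medians of 0.045 and 0.013. Without male stressed 4 these medians were -0.032 and -0.013. In controls the striatal term gave medians of 0.026 for the chaperones and -0.10 for the Atf4-linked genes. These medians correspond to differences of a few percent and carry no test. The genes were measured in the same libraries and the chaperones varied together between them, as given below. The counts by direction are therefore not counts of independent observations. Male controls also had the lowest median striatal score, -0.42 (-0.48 to -0.17), against 0.25 (-0.37 to 0.39) in female controls, and the oligodendrocyte, microglial and endothelial markers named above were lower there too. Their part in the 2 scores was not tested.

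**Figure D4:**
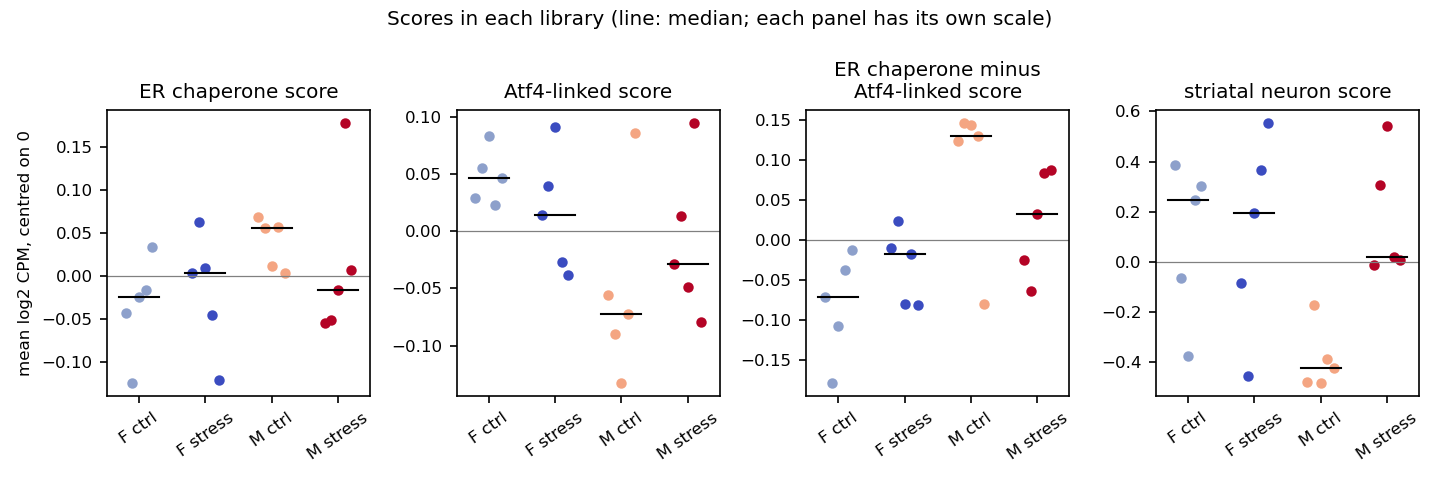
Score of each library (points) by group for the 15 chaperones, the 8 Atf4-linked genes, their difference and the 14 striatal neuron markers, in mean log2 CPM centred on 0, with a line at each median. Panels have separate scales. In the third panel 4 male controls lie between 0.12 and 0.15 and male control 5 at −0.081.

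While none of the 33 genes passed a test of stress or sex, the chaperones varied together from library to library within groups. After each group's mean was subtracted from log2 CPM, the 105 pairs of chaperones had a median Pearson correlation of 0.39 over the 20 libraries, and 33.3% of pairs were over 0.5, beside a median of -0.0036 and 7.10% for all pairs of genes in the table. The 28 Atf4-linked pairs had a median of 0.13, with 7.14% over 0.5. The 15 degradation pairs had a median of -0.073 and the 6 sensor pairs -0.13, with no pair over 0.5 in either. Pairs of 1 chaperone and 1 Atf4-linked gene had a median of 0.16, and 0.086 without male stressed 4. These correlations are descriptions over libraries that share depth, tissue makeup and preparation. The role groups and all genes were not matched for level. Among Atf4-linked genes Chac1 and Sesn2 averaged 4.26 and 9.21 CPM, and among chaperones Sdf2l1 averaged 8.08. The part of level in these medians was not tested.

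Each chaperone was also set against the mean of the other 14. Hspa5 followed them most closely (r = 0.85), then Manf (0.74), Dnajc3 (0.70), Pdia6 (0.70), Pdia4 (0.66), the Hspa5 partner Dnajb11 (0.64) and Hsp90b1 (0.64). The disulfide isomerase P4hb followed them least (0.15), with Hyou1 and the Hspa5 partner Dnajb9 at 0.32 and 0.32. The closest pairs of chaperones were Pdia3 with Dnajc3 (0.84), Hsp90b1 with Dnajc3 (0.83) and Hsp90b1 with Pdia3 (0.83). Outside the group, and named after the values were seen, Xbp1 had the highest correlation with the chaperone score (0.75), and the pair of Manf and Xbp1 was the highest of all 528 (0.85). Derl1 came next with 0.56, Atf4 had 0.39, and Ern1 the lowest with -0.56. By median correlation with the single chaperones, Derl1 (0.45, 7 of 15 over 0.5) was level with Xbp1 (0.43, 6 of 15). Xbp1 did not follow the other 3 sensor genes, whose mean it met with r = -0.55.

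Part of this pattern rested on male stressed 4. Of the 15 chaperones, 8 had their highest value relative to the group mean in that library, and 10 their highest or next highest. Manf had 35.8, 37.3, 41.6, 50.1 and 37.3 CPM in stressed males 1 to 5, with male stressed 4 far above the rest. Without it the median correlation of chaperone pairs was 0.22, with 22.9% of pairs over 0.5, beside 7.28% for all genes. Hspa5 then had 0.74 with the other chaperones, Dnajc3 0.78, Hsp90b1 0.64 and Manf 0.53, while Creld2 and Hyou1 were at 0.083 and 0.022, and with the chaperone score Xbp1 had 0.64, Derl1 0.46, Atf4 0.13 and Ern1 -0.42. Leaving out any other library gave a median between 0.34 and 0.46. With the striatal score, the oligodendrocyte score and depth also removed, the median was 0.51 and 50.5% of pairs were over 0.5. The 7 chaperones whose promoters hold the ER stress element ranked 1 (Hspa5), 3 (Dnajc3), 4 (Pdia6), 7 (Hsp90b1), 9 (Calr), 10 (Canx) and 12 (Creld2) of the 15 by their correlation with the rest. Pdia4 and Dnajb11, with no match in this window, ranked 5 and 6.

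**Figure D5:**
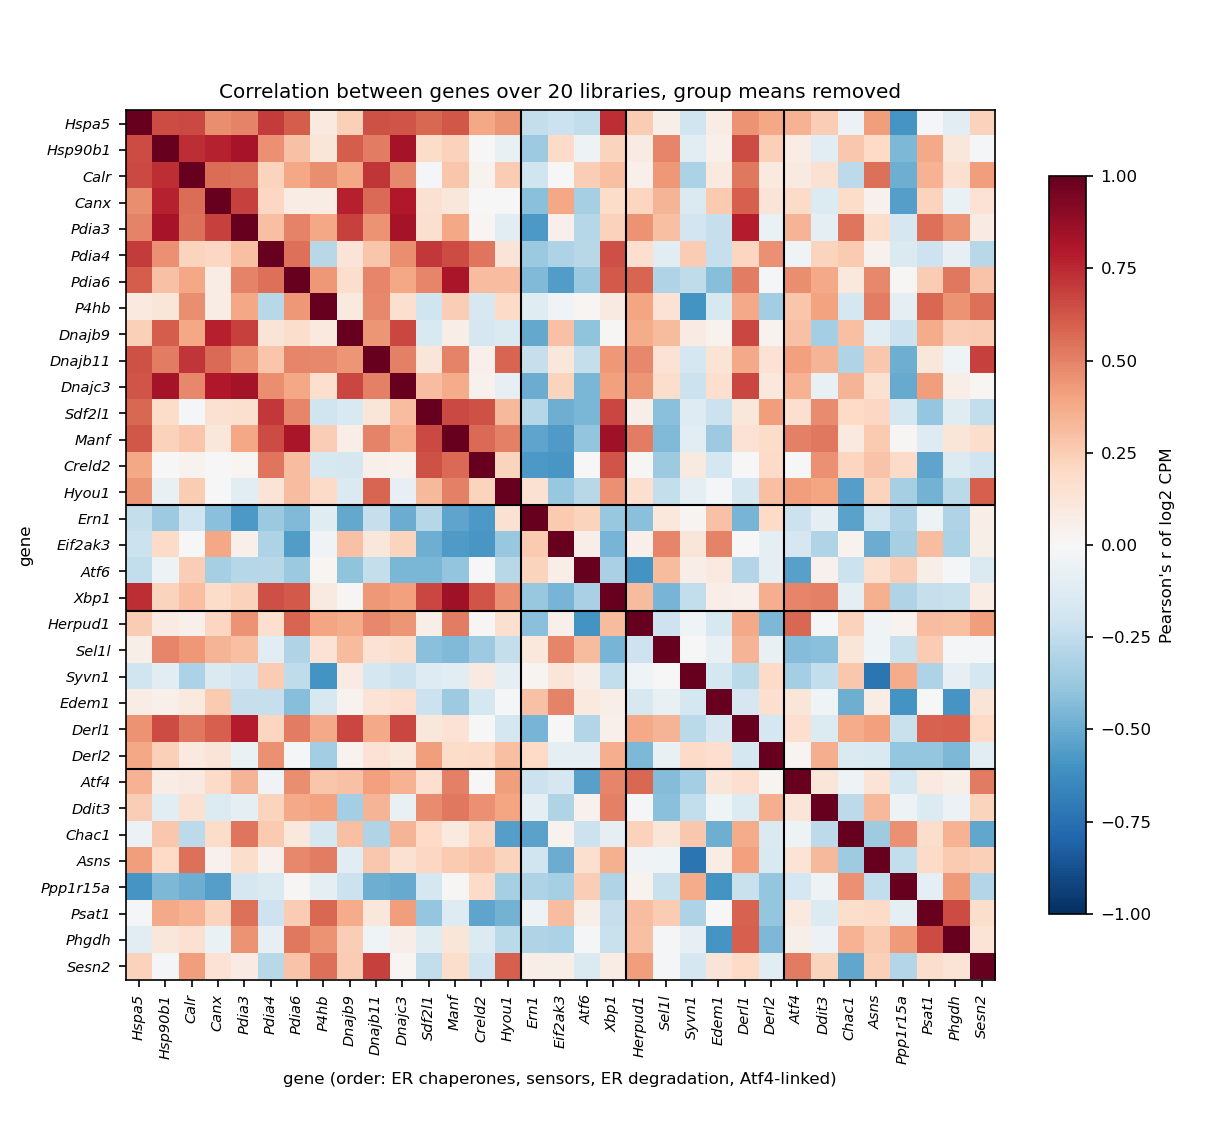
Pearson correlation of log2 CPM between all pairs of the 33 genes over 20 libraries with group means removed, genes ordered by role and black lines between roles. The chaperone block at the upper left is mostly red, with 33.3% of its pairs over 0.5. Xbp1 is over 0.5 with 6 of the 15 chaperones, and the Atf4-linked block at the lower right is mixed.

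Wider lists of the same pathways, chosen by name, gave few calls. Of 49 further ER folding genes and 35 further degradation genes in the table, 0 passed in any of the 6 comparisons. Over all genes, 0.747% passed between the sexes in controls and 0.077% in stressed mice. Of 29 further sensing and translation control genes, 1 passed, in both sex comparisons: the X-linked initiation factor subunit gene Eif2s3x. Its Y-linked near-copy Eif2s3y could share its reads, so its level is uncertain. Eif2s3x had 39.0 to 45.1 CPM in female controls and 22.6 to 25.8 in male controls, and the male minus female log2 difference was -0.74 (SE 0.060, adjusted p = 4.29e-08) in controls and -0.67 (SE 0.057, adjusted p = 9.06e-08) in stressed mice, called under every setting tried. Of 45 further Atf4 targets, 1 passed, in the sex comparison of controls: Ddit4, an inhibitor of the growth kinase complex around mTOR that glucocorticoids also raise.

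Ddit4 had 23.9, 24.3, 23.9, 24.5 and 22.1 CPM in female controls and 25.9, 35.4, 32.3, 28.8 and 42.2 CPM in male controls. All male controls were above all female controls, as was so for 1.95% of all genes. The log2 difference was 0.48 (SE 0.10, adjusted p = 0.0270), and it did not pass when female control 1 (adjusted p = 0.0711), female control 5 (0.0930), male control 2 (0.0660) or male control 3 (0.0572) was left out, nor with limma-voom (0.0528), the striatal term (0.0711) or the replicate number as a block (0.0569). It was called in 23 of 30 settings. Stressed females had 28.8, 32.5, 28.4, 28.5 and 31.8 CPM, all above the female controls, as was so for 0.654% of all genes. That log2 difference was 0.34 (SE 0.10, adjusted p = 0.565), and the interaction was -0.56 (SE 0.14, adjusted p = 0.260), neither of which passed.

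At an unadjusted p under 0.05, stress in females gave 2 of 49 folding genes higher and 2 lower, 1 and 0 of 35 degradation genes, 4 and 0 of 29 sensing genes, and 3 and 1 of 45 Atf4 targets, against 3.69% and 3.83% of all genes. In males these counts were 3 and 0, 2 and 1, 3 and 2, and 0 and 3, against 8.71% and 6.76%. Between control males and females they were 2 and 1, 1 and 0, 6 and 2, and 7 and 0 (higher and lower in males), against 7.08% and 8.17%. In stressed mice they were 2 and 1, 2 and 1, 1 and 2, and 3 and 1, against 3.71% and 3.35%. The interaction gave 2 and 1, 0 and 1, 1 and 1, and 0 and 4, against 5.34% and 5.03%. The average over the sexes gave 2 and 1, 0 and 1, 4 and 1, and 1 and 2, against 7.45% and 5.27%.

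With stress in females and averaged over the sexes, the smallest p of the wider lists belonged to Nfe2l2, a factor of the antioxidant response that the kinase encoded by Eif2ak3 also acts on. Nfe2l2 had 19.8, 17.6, 19.4, 17.7 and 18.9 CPM in female controls and 23.2, 22.0, 24.2, 23.9 and 21.7 CPM in stressed females, without overlap, as was so on the higher side for 0.654% of all genes. Male controls had 20.4, 22.6, 19.1, 23.3 and 21.4 CPM and stressed males 25.6, 25.8, 22.7, 24.6 and 23.7 CPM, with a small overlap. The log2 difference was 0.29 (SE 0.064, adjusted p = 0.377) in females, 0.18 (SE 0.061, adjusted p = 0.151) in males and 0.23 (SE 0.044, adjusted p = 0.0530) averaged over the sexes. The average did not pass in the main fit, and passed in DESeq2 (adjusted p = 0.0262) and without female stressed 2 (0.0320). These were the only 2 of 29 settings that called it. Over the settings its adjusted p reached 0.641, and its log2 difference lay between 0.22 and 0.25.

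Other genes with the smallest p were the phosphatase gene Ppp1ca, at 0.30 (SE 0.078, adjusted p = 0.0895) log2 units with stress in males and 0.32 (SE 0.11, adjusted p = 0.348) in the interaction, and the amino acid sensing kinase gene Eif2ak4, at -0.24 (SE 0.075, adjusted p = 0.125) and -0.31 (SE 0.11, adjusted p = 0.352). The amino acid transporter gene Slc38a2 differed by 0.27 (SE 0.077, adjusted p = 0.0973) between the sexes in controls. In stressed mice the sexes differed by 0.14 (SE 0.043, adjusted p = 0.612) in the ubiquitin ligase gene Marchf6 and by -0.19 (SE 0.065, adjusted p = 0.626) in the degradation gene Aup1. The transaminase gene Gpt2 was at 0.18 (SE 0.065, adjusted p = 0.597) with stress in females. Averaged over the sexes, the initiation factor subunit gene Eif2b3 was at -0.20 (SE 0.063, adjusted p = 0.256) and the amino acid transporter gene Slc7a3 at -0.30 (SE 0.098, adjusted p = 0.270). Ppp1ca in males passed in DESeq2 (adjusted p = 0.0279), in the fit of males alone (0.0433) and without female stressed 2 (0.0349), and with the striatal term its log2 difference was 0.074 (adjusted p = 0.890) and its interaction 0.10. Slc38a2 in controls passed in the fit of controls alone (0.0226) and with an oligodendrocyte score as a covariate (0.0275), and Slc7a3 passed without female stressed 2 (0.0448). With the striatal term Slc7a3 was at -0.098 and Eif2b3 at -0.13, both with an adjusted p of 1.000. The median log2 fold change of each wider list lay between -0.036 and 0.037 in all 6 comparisons.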

How the data were processed

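The authors deposited whole-number counts per gene symbol for 20 libraries, from libraries that the labels' protocols describe as stranded mRNA libraries, and made, per the submitters' processing notes, with STAR, featureCounts and the mouse build mm10. Versions, the annotation, the strand setting and the handling of reads shared by overlapping or near-identical genes are not given in the sources used here. The lowest row total was 1002, and genes outside the table were not analysed here. The members and lists were chosen with earlier results of these data known. Counts were fitted with edgeR 4.0.16 in R 4.3.3 (TMM factors, 1 mean for each of the 4 groups, glmQLFTest, two-sided), and filterByExpr kept all 12988 genes. Adjusted p-values are Benjamini-Hochberg over all genes of a comparison and come from edgeR unless another tool is named. Scores and correlations used log2 CPM with a prior count of 2, computed from the deposited counts. All 40 within-group pairs of libraries differed by more than counting noise (lowest chi-square per degree of freedom 1.88). In a test on simulated data for stress in males, over 12988 genes, 80 of 100 genes changed by 0.5 log2 units and 99 of 100 changed by 1 were called, with 10 false calls. Fold changes are printed for the 5 members with the smallest p in each comparison, for Hspa5, Xbp1, Atf4 and Ddit3 in each, and for the 3 smallest of the wider lists. Genes outside that rule are given by level. Alternatives were DESeq2 1.42.0 and its size factors, limma-voom (limma 3.58.1), the robust option, a minimum of 10 CPM, a fit of just the 2 groups in question, a block for the replicate number, a striatal or oligodendrocyte score as a covariate, and each library left out. Alternatives for the correlations (a prior count of 0.5, other size factors, group means kept, covariates removed, each library left out) were chosen after seeing the data.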

Additional observations from a re-analysis of the deposited data

Results flagged for a closer look

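In 6 of 152 groups of 5 libraries tested, over the 33 genes and 5 scores, 1 library stood apart from the other 4 by Dixon's criterion (a gap over 0.71 of the group's range). Chance gives about 1 in 20. Pdia6, a disulfide isomerase, was lowest in male control 3, at 115 CPM against 127 for the nearest library, and highest in male stressed 4, at 139.7 CPM against 119.9. Hyou1 was highest in male control 3, at 169 CPM against 158. Xbp1 was lowest in male control 5, at 80.8 CPM against 88.8. The chaperone score was highest in male stressed 4, at 0.18 against 0.0077. The chaperone minus Atf4-linked score was lowest in male control 5, at -0.081 against 0.12.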

How the results depend on the processing

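Under 29 alternative settings (28 for the interaction and average stress, where a fit of only the groups compared does not apply) the count of called genes among the 33 stayed at 0, except that 1 gene, Atf6, was called for stress in males when only the groups compared were fitted. That fit called 303 genes in all for stress in males, against 1 in the main fit. Of 52 named fold changes 34 kept their sign in every setting. With the striatal score as a covariate, the median of the Atf4-linked genes for stress in males moved to 0.10. Under that covariate signs turned for Ddit3 (stress in males -0.022, sex in controls 0.047, interaction -0.043, average stress -0.00090), for Atf4 (interaction 0.11, average stress 0.049, stress in males 0.10, and between the sexes -0.096 in controls and 0.016 in stressed mice), for Hspa5 (interaction 0.024) and for Atf6 (sex in controls 0.0039, interaction -8.8e-05). With the oligodendrocyte score, stress in females gave -0.0015 for Ddit3 and 0.035 for Atf4. For sex in controls, Ddit3 was at 0.0020 in DESeq2 and 0.016 in limma-voom, and Xbp1 at 6.9e-06 with DESeq2 size factors, 0.0095 in limma-voom and 0.0016 with a minimum of 10 CPM. For sex in stressed mice, Ddit3 was at -0.00091 with that minimum and Atf4 at 0.0023 in limma-voom. The cause of these turns was not tested.

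Leaving out each library in turn moved the chaperone median for sex in stressed mice between -0.032 and 0.074. Fold changes for stress in females lay between -0.047 and 0.048 for Ddit3, -0.053 and 0.038 for Atf4, and -0.056 and 0.033 for Xbp1. For stress in males they lay between -0.0033 and 0.072 for Ddit3 and between -0.025 and 0.085 for Hspa5. For sex in controls they lay between -0.073 and 0.029 for Ddit3, -0.019 and 0.067 for Atf4, and -0.035 and 0.032 for Xbp1, and in stressed mice between -0.028 and 0.046 for Ddit3 and -0.066 and 0.030 for Atf4. The interaction lay between -0.024 and 0.078 for Ddit3, -0.093 and 0.030 for Hspa5, and -0.094 and 0.014 for Atf4, and average stress for Ddit3 between -0.0075 and 0.047. The median correlation lay between 0.22 (without male stressed 4) and 0.46 for chaperone pairs, and between -0.019 (without male control 5) and 0.17 for Atf4-linked pairs.

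Same-numbered libraries of different groups did not deviate together (30 pairs, median r -0.012, 5 of them over 0.1). Libraries with different numbers had a median r of 0.014 (120 pairs, 41 over 0.1). No pairing by number was seen in these values, so the main fit has no block, though they cannot show that no handling was shared. With the replicate number as a block, 0 of the 33 genes were called in each comparison, and 48 of all genes for sex in controls against 97 without it.

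Counts over all genes depended more on the setting. DESeq2 called 239 for stress in males, 248 for sex in controls, 22 in the interaction, 13 for average stress and 1 for stress in females. Fitting only the groups compared called 303 for stress in males and 304 for sex in controls. The oligodendrocyte covariate called 338 for sex in controls, 15 in the interaction and 3 for stress in males, limma-voom called 63 for sex in controls, and DESeq2 size factors called 5 for average stress and 3 in the interaction. The 10 CPM minimum called 3 in the interaction, and the striatal covariate called 1 there and 2 for stress in females.

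Depth limited the precision for genes with few reads, such as Chac1, with 7 reads in the shallowest library. The half-width of the 95% interval had a median of 0.14 log2 units. In simulated data, whose genes varied independently and shared no tissue differences, 80 of 100 genes changed by 0.5 log2 units passed the adjusted test. The share in these libraries may be lower. With stress in males, 14 striatal markers had a median log2 difference of 0.59, and 0 passed (lowest adjusted p = 0.0871). Those markers varied more between pools than the chaperones did, with a score SD of 0.24 against 0.096 in stressed males. Changes of 0.5 log2 units and less could thus be missed in genes with a wide spread or few reads. For stress, the half-width among the 33 genes ran up to 0.31 in females and 0.30 in males, and smaller changes could be missed there too. With 5 pools of 3 mice a group, p-values measure the spread between pools.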
